A study of Mus musculus with 2 samples.

Results

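The GIMAP genes, for GTPases of immunity-associated proteins, were followed in CD8+ T cells that had lost the transcription factor Bcl11b and in wild-type CD8+ T cells. The members were chosen by name: every gene spot whose gene name on the array was Gimap1, Gimap3, Gimap4, Gimap5, Gimap6, Gimap7, Gimap8 or Gimap9. This gave 10 probes for 7 of the 8 names, out of 41174 gene probes and 27597 genes. No probe used here carried the name Gimap8.

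The deficient mice were Bcl11bF/F/dLck-iCre, where the distal Lck promoter drives a Cre recombinase that removes the floxed Bcl11b gene in T cells, and the controls were wild-type mice. Mice of both genotypes were infected with Listeria monocytogenes-OVA, a strain carrying ovalbumin, and their cells were taken at day 6 by negative selection at a stated purity over 90%. There were 2 two-colour arrays, each with deficient RNA in Cy5 (red) and wild-type RNA in Cy3 (green) from 1 biological replicate. The labels do not say whether a replicate is 1 mouse or a pool, and they give no age or strain. All ratios are deficient over wild type on the log2 scale, so a value of -1 is a signal 2 times lower in deficient RNA. Because the dyes were not exchanged between the arrays, a dye effect on a probe and an effect of genotype cannot be told apart.

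GIMAP proteins share a GTP-binding domain and are made mainly by lymphocytes. Their genes lie side by side in a single cluster, on chromosome 6 of the mouse. Loss of Gimap5 in rats and mice leads to a lack of peripheral T cells, and Gimap1 is needed for mature lymphocytes to persist, so the family is known for the survival of resting T cells. Arrays of this kind measure RNA in the whole preparation. Fewer cells of a type and less RNA per cell therefore cannot be told apart.

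The array files place the 10 GIMAP probes, each 60 bases long, within 87255 bases of chromosome 6 on build NCBI36 (mm8), from 48607426 to 48694680. In order along the chromosome they belong to Gimap9, Gimap4, Gimap6, Gimap7, Gimap1, Gimap5 and Gimap3. The probes for Gimap6 and Gimap3 lie on the minus strand and the others on the plus strand. Exons and untranslated regions were not assigned, since no mm8 annotation was used.

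The files hold no probe sequences, and RefSeq promoter windows (build GRCm38.p6) are shown instead, because the measured members shifted the same way. All 8 names, Gimap8 included, matched 9 windows, and the 250 bases before each start were searched on both strands for 4 short motifs. The letters TGTGGT, bound by RUNX factors of T cells, occurred before Gimap1, Gimap4 and Gimap7, in 3 of 9 windows against 14.0% of 32851 windows of all genes. The letters GGAAGT, a core bound by ETS factors, occurred before Gimap5 and Gimap6, in 2 of 9 windows against 19.7%. The letters CTTTGA (TCF and LEF factors) occurred in 0 of 9 windows against 13.8%, and TGTTTAC (FOXO factors) before Gimap3 alone, in 1 of 9 against 3.17%. A match is a run of letters and not a measured binding site. The 6 matches of RUNX and ETS letters are printed 5′ to 3′ along the gene's strand, with the motif or its reverse complement (ACCACA for RUNX) in capitals:
Gimap1, RUNX letters, chr6:48738934-48738975, plus strand: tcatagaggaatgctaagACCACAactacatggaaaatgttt
Gimap4, RUNX letters, chr6:48684415-48684456, plus strand: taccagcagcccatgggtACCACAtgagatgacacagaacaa
Gimap7, RUNX letters, chr6:48718524-48718565, plus strand: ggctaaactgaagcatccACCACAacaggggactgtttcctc
Gimap5, ETS letters, chr6:48745963-48746004, plus strand: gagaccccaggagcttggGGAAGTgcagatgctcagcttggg
Gimap5, ETS letters, chr6:48746135-48746176, plus strand: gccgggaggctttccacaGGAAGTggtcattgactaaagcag
Gimap6, ETS letters, chr6:48708246-48708287, minus strand: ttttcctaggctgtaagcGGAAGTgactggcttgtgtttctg
The matches lie 19 (Gimap6) to 210 bases (the first one of Gimap5) before the start.

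The GIMAP genes were lower in deficient cells on both arrays. Of the 7 genes with a probe, 6 were bright enough to be tested, and all 6 had a log2 ratio below 0 on both arrays, as did 41.5% of the 9931 tested genes. A call required an adjusted p under 0.05 in limma, a linear model with a pooled error, adjusted over all 12622 tested probes. By that test Gimap4 fell, the other 5 did not pass, and 0 rose, while 4.30% of tested genes were called lower and 3.16% higher. At an unadjusted p under 0.05 in limma, 5 of 6 were lower and 0 higher, against 14.3% and 7.71% of tested genes. The median over the 6 genes was -0.94, against -0.12 over all tested genes. It was -1.18 on replicate 1 and -0.64 on replicate 2, where the medians over all tested genes were -0.22 and -0.01. For Gimap4, Gimap9 and Gimap3 the deficient channel was well above background on replicate 2 only, so these 3 entered the test through the wild-type channel, where they are bright, and their direction is partly set by that filter.

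The arrays differed in how far the members stood from 0. On replicate 1, 4 of 6 lay below -1, against 21.6% of tested genes, and on replicate 2, 0 of 6 did, against 2.52%. Of those 4, Gimap4, Gimap3 and Gimap9 had no deficient signal well above background on replicate 1, so the count is partly set by the filter and is given as a description; Gimap5 was the other. The share of tested genes with a lower ratio than the member ran from 3.53% (Gimap4) to 23.7% (Gimap1) on replicate 1, and from 4.15% (Gimap5) to 12.0% (Gimap9) on replicate 2. For Gimap4, Gimap3 and Gimap9 these shares are partly set by the filter too. With 2 arrays, an exact sign-flip permutation test of a single gene cannot go below p = 0.5, two-sided.

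**Figure D1:**
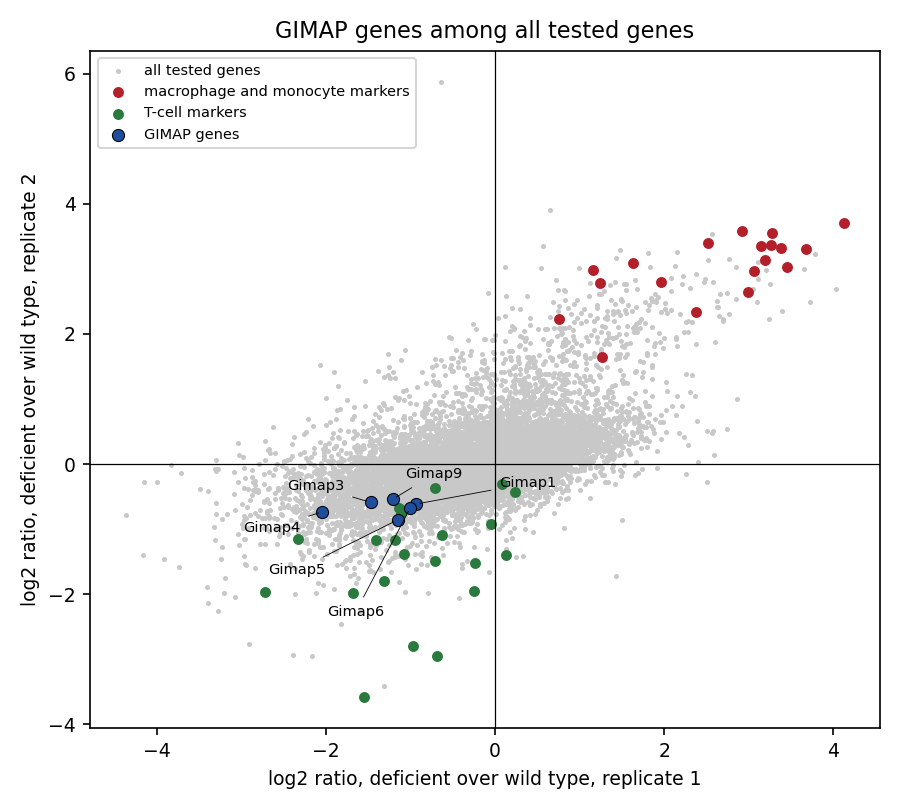
Log2 ratio of deficient over wild type on replicate 1 (horizontal axis) and replicate 2 (vertical axis) for the tested genes, each by its brightest probe, with GIMAP genes in blue, T-cell markers in green and macrophage and monocyte markers in red. The 6 GIMAP genes lie in the lower left, between -2.04 and -0.93 on replicate 1 and between -0.86 and -0.54 on replicate 2.

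Gimap5, whose product sits on lysosomal membranes and whose loss depletes T cells, was well above background in all channels. Its mean spot signals, background included, were in wild-type cells 4427 on replicate 1 and 4593 on replicate 2, and in deficient cells 1941 and 3817, so the channels stood far apart on replicate 1 and closer on replicate 2. After background correction and dye normalization the log2 ratio of this probe (NM_175035, 48683088 to 48683147) was -1.15 on replicate 1 and -0.86 on replicate 2. The mean was -1.01 ± 0.21 (SD, n = 2; limma adjusted p = 0.118), with an unadjusted 95% interval from -1.81 to -0.20.

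A second probe named Gimap5 (AK087160, a cDNA clone; 48676977 to 48677036) lies 6051 bases from the first toward Gimap1. Its log2 ratio was -0.41 on replicate 1 and -0.59 on replicate 2, with a mean of -0.50 ± 0.13 (SD, n = 2; limma adjusted p = 0.464). The RefSeq probe was lower than the clone probe by a log2 difference of -0.74 on replicate 1 and -0.27 on replicate 2. Both probes of the gene were thus below 0 on both arrays, and the distance between them was 0.50 ± 0.33 in size (SD, n = 2; not tested). The files do not say which transcript the clone represents.

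Gimap1, which mature T and B cells need, gave signals of 4697 and 5067 in wild-type cells and of 2194 and 4843 in deficient cells. Before correction and dye normalization, most of the gap between these signals thus lay on replicate 1. The log2 ratio (NM_008376, 48672996 to 48673055) was -0.93 on replicate 1 and -0.61 on replicate 2, a mean of -0.77 ± 0.23 (SD, n = 2; limma adjusted p = 0.241). With each gene counted by its brightest probe, this mean was the closest to 0 among the 6 genes. With the mean of probes, Gimap5 (-0.75) lay slightly closer to 0 than Gimap1 (-0.77).

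Gimap6, a cytosolic member that binds a protein of the autophagy machinery, gave 3515 and 3900 in wild-type cells and 1832 and 3697 in deficient cells. Its log2 ratio (NM_153175, minus strand, 48631385 to 48631444) was -1.0 on replicate 1 and -0.67 on replicate 2, a mean of -0.83 ± 0.23 (SD, n = 2; limma adjusted p = 0.204). Gimap1, Gimap5 and Gimap6 were the 3 members well above background in both channels on both arrays.

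Gimap3, a close relative of Gimap5, had 2 probes (NM_031247, minus strand) that share 50 of their 60 bases, and so are nearly a repeat measurement. The brighter (48694621 to 48694680) gave 1773 and 2244 in wild-type cells and 1254 and 2381 in deficient cells. Its log2 ratio was -1.47 on replicate 1 and -0.59 on replicate 2, with a mean of -1.03 ± 0.62 (SD, n = 2; limma adjusted p = 0.115). The other probe (48694611 to 48694670) gave -1.27 and -0.62, with a mean of -0.95 ± 0.46 (SD, n = 2; limma adjusted p = 0.146). The probes differed by -0.20 on replicate 1 and 0.03 on replicate 2, less than either probe differed between the arrays.

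Gimap4, which is reported to speed the death of T cells rather than to delay it, was the member that passed the test. Its signals were 961 and 1124 in wild-type cells and 1038 and 1281 in deficient cells, while the medians of negative control spots were 326.5 and 406 for green and 968 and 707 for red. The deficient signal on replicate 1 was therefore close to that of spots that bind no mouse RNA. The log2 ratio (NM_175048, 48620453 to 48620512) was -2.04 on replicate 1 and -0.73 on replicate 2, a mean of -1.39 ± 0.93 (SD, n = 2; limma adjusted p = 0.0339), with an unadjusted 95% interval from -2.22 to -0.55. Among 11 alternatives that kept the probe, 5 kept the call, with limma adjusted p over all 11 from 0.0141 to 0.277; it was lost at -0.73 without background correction (adjusted p = 0.102), -1.35 with median centring (0.127), -1.49 with the fitted background surface (0.0994), -1.39 without a filter on dim probes (0.277), -2.86 with the scanner program's ratios (0.176) and -2.87 with the deposited value table (0.176). Its mean was the lowest of the 6 genes, but Gimap5 was lower on replicate 2, without background correction (-0.88) and with median centring (-1.79). With median centring, Gimap1 (-1.59), Gimap6 (-1.59) and the brighter Gimap3 probe (-1.51) were lower than Gimap4 too. Without replicate 1 the value of Gimap4 was -0.73 and without replicate 2 it was -2.04, neither with a test.

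Gimap9 gave 1434 and 1631 in wild-type cells and 1271 and 1865 in deficient cells. Its log2 ratio (NM_174960, 48607426 to 48607485) was -1.21 on replicate 1 and -0.54 on replicate 2, a mean of -0.87 ± 0.47 (SD, n = 2; limma adjusted p = 0.184). Like Gimap4 and Gimap3, it was well above background in deficient cells on replicate 2 only.

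Gimap7 was too dim to test. Its RefSeq probe (NM_146167, 48653858 to 48653917) gave 403 and 467 in wild-type cells and 955 and 744 in deficient cells, near the negative controls of each channel, and was not well above background in either channel on either array. A clone probe named Gimap7 (AK041116, 48648426 to 48648485) gave 482 and 539 in wild-type cells and 1107 and 842 in deficient cells, and was well above background in the wild-type channel of replicate 1 alone. No direction was drawn for Gimap7.

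**Figure D2:**
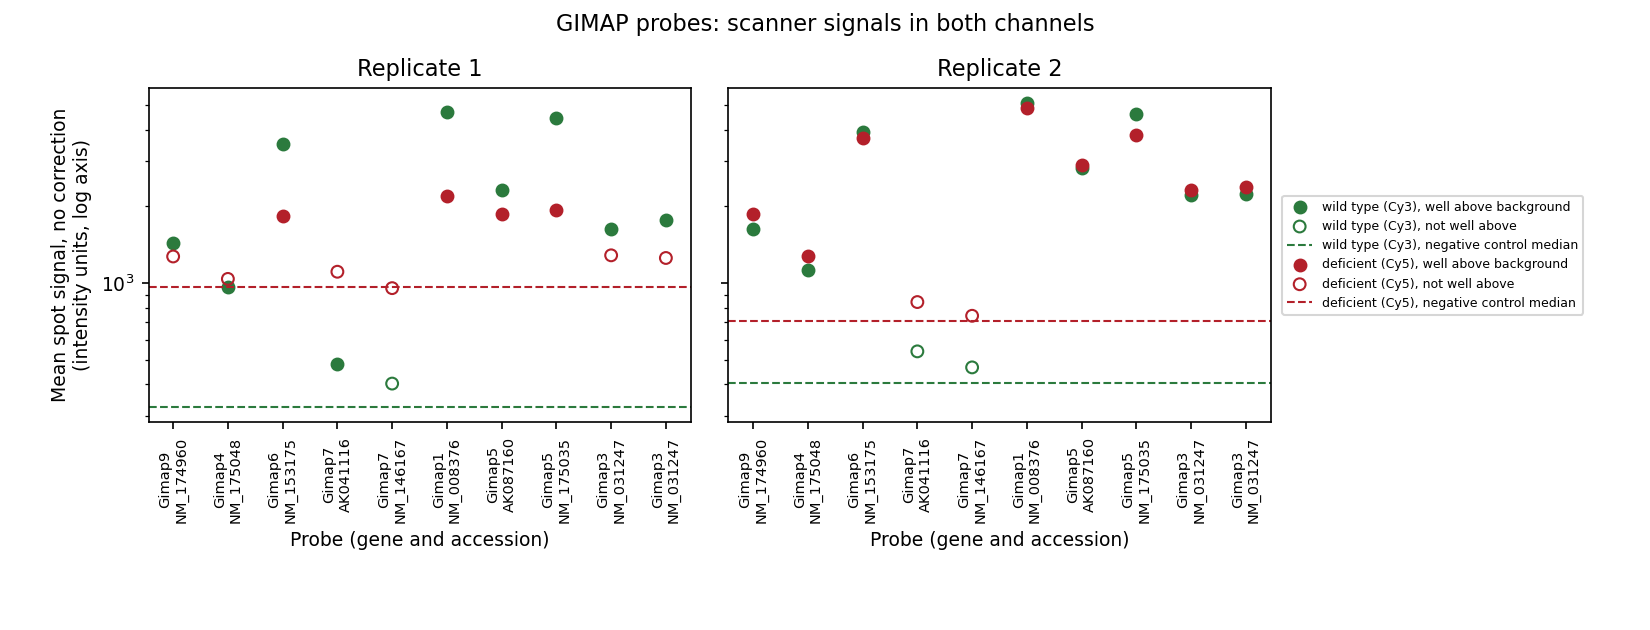
Mean spot signal of each GIMAP probe (horizontal axis, in order along the chromosome) in the wild-type channel (green) and the deficient channel (red) on a log axis, for replicate 1 (left) and replicate 2 (right). Filled points are well above background, open points are not, and dashed lines mark the median of negative control spots. On replicate 1 the wild-type points of Gimap1, Gimap5 and Gimap6 lie clearly above the deficient ones, and on replicate 2 the channels of the 8 tested probes lie close together.

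Most of the distance from 0 on replicate 2 came with the dye normalization. Before loess, a curve that centres the ratios at each brightness, the 6 genes had log2 ratios from -1.77 (Gimap5) to -1.11 (Gimap9) on replicate 1, where the median over tested genes was 0.00. On replicate 2 they ran from -0.37 (Gimap5) to 0.03 (Gimap9), and the median over tested genes was 0.63. There 5 of the 6 genes were already below 0, and Gimap9 was not. Loess moved the members by -0.88 (Gimap4) to 0.66 (Gimap1) on replicate 1 and by -0.65 (Gimap4) to -0.48 (Gimap1) on replicate 2. The members lay low among genes before this step as well. Before loess, the share of tested genes with a lower ratio was 3.31% (Gimap5) to 12.0% (Gimap9) on replicate 1 and 2.75% (Gimap5) to 10.1% (Gimap9) on replicate 2. For Gimap4, Gimap3 and Gimap9, which entered the test through the wild-type channel, this place is partly set by the filter. For Gimap1, Gimap5 and Gimap6, well above background in both channels, the shares were 3.31% to 5.35% on replicate 1 and 2.75% to 6.02% on replicate 2.

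The scanner program's own ratios lay further from 0, most in members near background. Median local background was 37 for green and 47 for red, far below the negative controls. The scanner program instead fitted a background surface, with medians of 337 and 411 for green and 985 and 718 for red. Its ratios, which differ in background, transformation and dye normalization together, put Gimap4 at -4.41 on replicate 1 and -1.31 on replicate 2, Gimap9 at -2.24 and -0.79, and the brighter Gimap3 probe at -2.55 and -0.74. The members well above background in both channels moved less, with Gimap1 at -1.11 and -0.72, Gimap6 at -1.24 and -0.75, and the RefSeq probe of Gimap5 at -1.33 and -0.95. When the fitted surface alone replaced local background, with normexp and loess kept, Gimap4 was -1.49 and the median of the 6 genes -0.96, close to the values above. With the scanner program's ratios the median of the 6 genes was -1.33 and none of the 9931 tested genes was called by limma in either direction (2511 probes had an unadjusted p under 0.05).

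**Figure D3:**
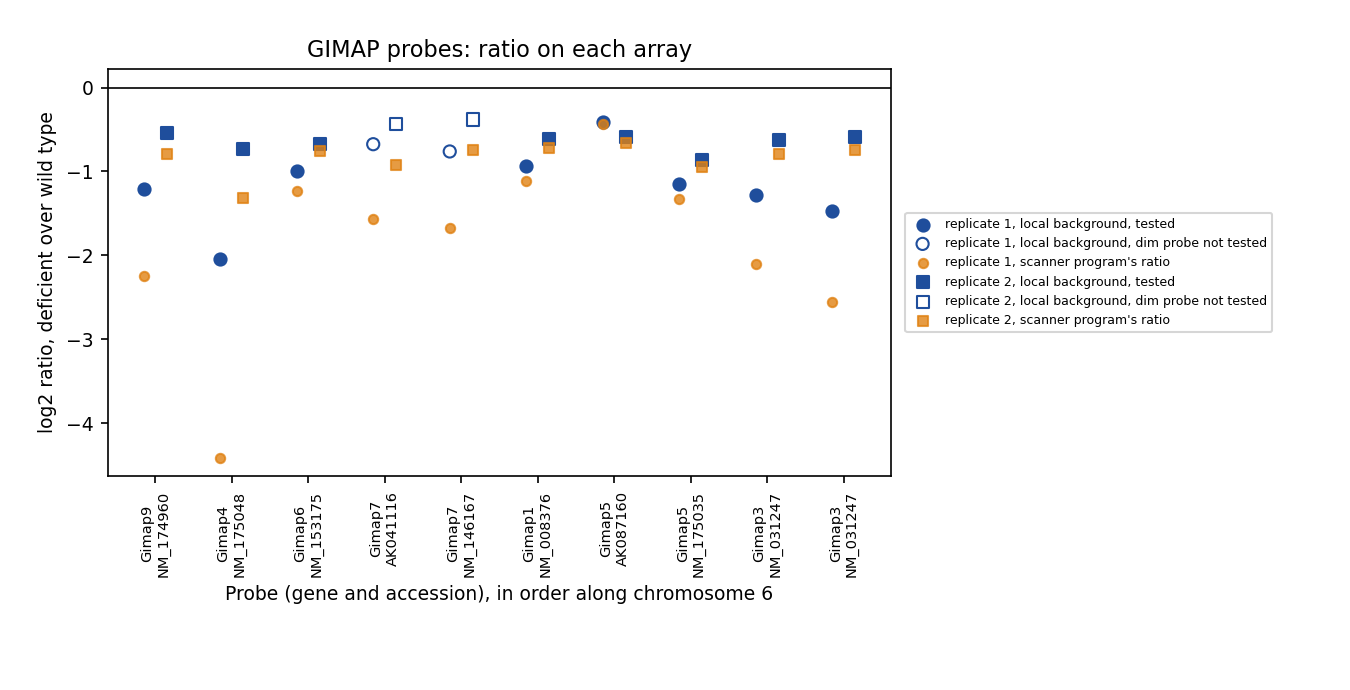
Log2 ratio of deficient over wild type (vertical axis) for each GIMAP probe in order along chromosome 6, on replicate 1 (circles) and replicate 2 (squares), from local background with loess (blue, open for probes too dim to test) and from the scanner program (orange). Every plotted point lies below 0; with local background, the clone probe of Gimap5 is the single tested probe that is lower on replicate 2 than on replicate 1.

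Only part of the order among the members repeated on both arrays. By mean log2 ratio of each gene's brightest probe, the order from lowest was Gimap4, Gimap3, Gimap5, Gimap9, Gimap6 and Gimap1. Of the 15 pairs, 8 stood in the same order on both arrays: Gimap4 below Gimap1, Gimap3, Gimap6 and Gimap9, Gimap5 below Gimap1 and Gimap6, Gimap3 below Gimap9, and Gimap6 below Gimap1. By the RefSeq probe of Gimap5, the difference of Gimap5 minus Gimap1 was -0.22 on replicate 1 and -0.24 on replicate 2. That of Gimap5 minus Gimap6 was -0.15 and -0.19, so these gaps repeated closely. The difference of Gimap4 minus Gimap1, at -1.11 and -0.12, did not. Part of this order came with loess. Before loess, Gimap4 (-1.16 and -0.08) lay above Gimap1 (-1.59 and -0.13) and Gimap6 (-1.55 and -0.17) on both arrays. It lay below Gimap9 (-1.11 and 0.03), and Gimap5 (-1.77 and -0.37) lay below Gimap1 and Gimap6. The deficient signal of Gimap4 on replicate 1 was also not well above background. The clone probe of Gimap5 (-0.41 and -0.59) lay above Gimap1 (-0.93 and -0.61) and Gimap6 (-1.0 and -0.67) on both arrays. The place of Gimap5 against these genes thus depends on the probe. These differences are between probes of different genes, each a ratio within its own probe, and were not tested. The SD between the 6 genes was 0.41 on replicate 1 and 0.11 on replicate 2, while the median SD of a gene between arrays was 0.35. Genes next to each other in that order differed by a mean of 0.36 (Gimap4 and Gimap3) or less.

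T-cell marker genes, read to set the family beside its cell type, were lower in the same samples. Of 23 markers 21 were tested, of which 8 fell and 0 rose, with 18 below 0 on both arrays and a median of -1.10. Over all tested genes, 4.30% fell, 3.16% rose and 41.5% lay below 0 on both arrays. The 8 include Bcl11b, the deleted gene. Cd3e, a chain of the T-cell receptor complex, stood at -2.34 ± 0.53 (SD, n = 2, limma adjusted p = 3.02e-04). Its red signal was well above background on 1 of 2 arrays, and with the mean of its probes the value was -1.82. Cd8a (-0.91 ± 0.33) and Cd8b1 (-1.10 ± 0.56) did not pass. The GIMAP median was lower than the T-cell median by a log2 difference of -0.22 on replicate 1 and was higher by 0.74 on replicate 2. So the 2 groups of genes did not keep one order across the arrays. T-cell markers had their lower median on replicate 2 (-1.38, against -0.96 on replicate 1), and the GIMAP genes on replicate 1.

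Bcl11b itself, read by its brighter probe (chromosome 12, 108363444 to 108363503), was -0.69 on replicate 1 and -2.95 on replicate 2, a mean of -1.82 ± 1.60 (SD, n = 2; limma adjusted p = 0.00987). Which exons the floxed allele loses is not given, and a probe outside them would not check the deletion. A second Bcl11b probe, with no red signal well above background, was -1.09 and -2.03. The GIMAP median was closer to 0 on replicate 2 (-0.64) than on replicate 1 (-1.18). The SD of log2 ratios was also smaller there (0.65, against 0.96). For Gimap1, Gimap5 and Gimap6, 4.15% to 9.44% of tested genes had a lower ratio on replicate 2, and 17.3% to 23.7% on replicate 1. A link between Bcl11b and GIMAP ratios was not tested.

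Markers of macrophages and B cells rose in the same samples. While 3.16% of all tested genes rose, all 19 tested macrophage and monocyte markers of 22 did, with a median of 3.01. Their summed normalised intensity was 38057 to 52380 in wild-type and 334393 to 360760 in deficient samples. The summed intensity of the tested T-cell markers was 237461 to 275265 in wild-type and 97184 to 140848 in deficient samples, and that of the 6 GIMAP genes was 15988 to 17499 and 7954 to 9976. Of 10 tested B-cell markers, whose cells also make GIMAP proteins, 7 rose (median 1.73). Of the other lists, 3 of 8 tested neutrophil, 2 of 6 natural killer cell, 4 of 4 erythroid, 2 of 3 dendritic, 1 of 2 plasma cell, 1 of 2 platelet and 1 of 5 endothelial markers rose and 0 fell, and the rest did not pass. Cd4, the 1 tested marker of 4 for CD4+ T cells, was well above background in wild type on 1 of 2 arrays, and was 0.30 ± 0.39 (SD, n = 2; limma adjusted p = 0.678). The part of these cells in the GIMAP values was not tested.

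Genes of T-cell survival and quiescence lay on both sides of 0. Of 38 genes of cytokine signalling, BCL2 proteins and T-cell quiescence, 33 were tested, of which 3 fell and 0 rose. On both arrays 18 were below 0 and 9 above 0, and the median was -0.38. Among all tested genes, 4.30% fell and 3.16% rose, while 41.5% lay below 0 and 32.5% above 0 on both arrays. Dapl1, a gene of naive and memory T cells, fell by 2.36 on the log2 scale (SD 1.49, n = 2; limma adjusted p = 7.49e-04). Il2rg, the shared receptor chain for interleukin 7 and related cytokines, was also lower, at -1.38 ± 0.69 (SD, n = 2; limma adjusted p = 0.0321); its red signal was well above background on 1 of 2 arrays. Jak3, the kinase bound to that chain, had no red signal well above background, and was 2.78-fold higher in wild-type cells (limma adjusted p = 0.0187). For probes so dim in red, a bound sets the normalised wild-type signal against a red value. That value is the higher of the probe's own red signal and the lowest red signal well above background. For Jak3 it was the probe's own, so 2.78-fold is the measured ratio. Such a bound takes no account of sampling error, and without a dye swap it can hold dye bias. Il2rg and Jak3 entered the test through the wild-type channel, so their direction, and with it the count of 3, is partly set by the filter. Dapl1 was well above background in both channels on both arrays. Il2rg and Jak3 each kept the call in 5 of 11 alternatives, and Dapl1 in 9 of 12. With median centring both Il2rg and Jak3 lost it (limma adjusted p = 0.0633 and 0.0664).

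Neither the receptor for interleukin 7 nor any BCL2 family gene tested from this list passed the test. Members of that family outside the list were not read. Il7r, the receptor chain that sustains resting T cells, was 0.10 ± 0.30 (SD, n = 2), and the anti-apoptotic genes Bcl2 and Mcl1 were 0.16 ± 0.42 and 0.18 ± 0.14. Bcl2l11, which encodes the death-promoting BIM, was 0.50 ± 0.50 (SD, n = 2). The other tested death-promoting members of the list, Bax, Bak1 and Bbc3, were 0.40 ± 0.16, 0.45 ± 0.33 and 0.12 ± 0.05. The quiescence factor Klf2 was -0.04 ± 0.52, and S1pr1, a receptor for exit from lymph nodes, was -0.64 ± 0.19. Klf2 and S1pr1 did not pass either. With median centring Il7r (-0.68), Bcl2 (-0.57), Mcl1 (-0.74) and Bcl2l11 (-0.15) lay below 0, and without background correction Klf2 (0.02) lay above 0, while S1pr1 stayed below 0 in all 12 alternatives.

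Genes beside the cluster lay on both sides of 0, in part through the filter on dim probes. Within 1 Mb on either side of the GIMAP probes lay 42 other named genes or transcripts, of which 19 were tested, 3 fell and 0 rose. On both arrays 9 were below 0 and 5 above 0, with a median of -0.25. Of all tested genes, 4.30% fell and 3.16% rose, while 41.5% lay below 0 and 32.5% above 0 on both arrays. The nearest tested neighbours were Lrrc61 on one side, with no red signal well above background and a bound of at least 1.21-fold higher in wild type (limma adjusted p = 0.414), and Tmem176a on the other, a membrane protein gene at 1.06 ± 0.80 (SD, n = 2; limma adjusted p = 0.109). Tmem176a, well above background in all 4 channels, was above 0 on both arrays (1.62 and 0.49). The genes that fell were Krba1, Zfp783, a zinc finger gene, and a transcript known by a clone accession. Krba1 was at least 2.38-fold higher in wild type (limma adjusted p = 6.37e-04) and Zfp783 at least 2.15-fold (limma adjusted p = 0.0241), both with red signals not well above background.

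**Figure D4:**
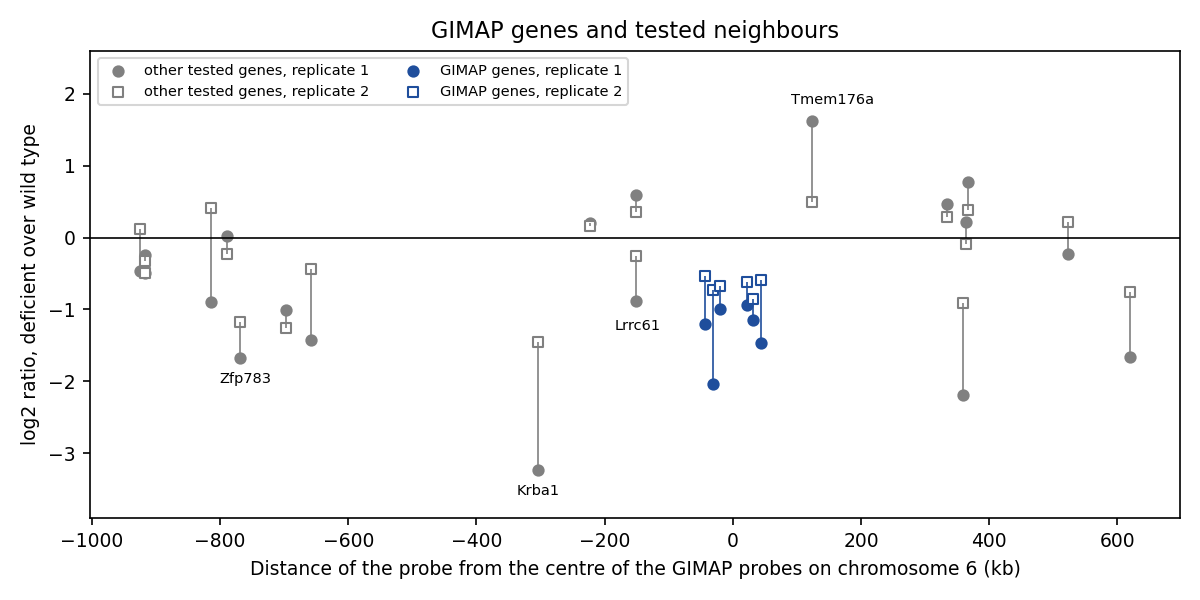
Log2 ratio of deficient over wild type (vertical axis) for GIMAP genes (blue) and other tested genes (grey) against the distance of the probe from the centre of the GIMAP probes in kb, with filled circles for replicate 1, open squares for replicate 2 and a line joining both. The 6 GIMAP genes lie below 0 on both arrays, and Tmem176a, the nearest tested gene on the right, lies above 0.

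The 5 named genes outside the family whose ratios on the 2 arrays lay closest to the GIMAP medians (-1.18 and -0.64) were Insl6, Polr2h, Clgn, Srpk1 and Idh3a, at distances of 0.024 to 0.035 on the log2 scale. In all, 261 of 9931 tested genes lay within 0.23, the median distance of the GIMAP genes themselves.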

How the data were processed

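Per the file headers, the deposited scanner files hold spot intensity values (mean signal and median local background per channel), made with Agilent Feature Extraction 9.5.3.1, and that program's log10 ratio (red to green). Values in the authors' deposited table equal it within 0.00500 on the log10 scale. Both arrays lie on 1 slide. A Kreatech ULS kit labelled linearly amplified RNA, per the labels' protocols. Mean signals were corrected by normexp (offset 50) and normalised by loess, with controls at weight 0; outlier spots were left out (255 and 195). The test of log2 ratios against 0 used limma 3.58.1 (R 4.3.3) over 12622 probes, those with 1 channel well above background on both arrays, and a gene counted by its brightest probe. The fit has 1 residual degree of freedom per probe; the number of arrays limits precision. Of gene spots, 32.4% and 28.9% were well above background in green, and 26.0% and 31.1% in red. To it the model adds 30.7 degrees of freedom from an error pooled over the tested probes. The p-values and intervals therefore rest mostly on that pooled error, and little on a probe's own spread between the 2 arrays. The flag and neighbour coordinates are the files' own; probes were named through RefSeq accessions (24375), symbols or synonyms (8727) or the array (8072). In 20 simulated draws of this comparison over 12622 probes, with 200 changed, 8.06% of changes of 1 on the log2 scale were recovered, 78.0% of those of 2 and 99.3% of those of 3, and 8.41% of calls were false. Members, lists and the rule for named genes (the GIMAP genes, Bcl11b, set markers, called list members, nearest neighbours, most similar genes) were chosen with earlier results of these data known. Alternatives changed the background, normalization, ratios, filter, variance model and probe summary.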

Additional observations from a re-analysis of the deposited data

How the results depend on the processing

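All tested GIMAP genes stayed below 0 on both arrays under 12 alternatives, with 3 of them testable when both channels had to be above background. The GIMAP median was -1.55 with median centring, -1.33 from the ratios of Feature Extraction and -1.33 from the deposited value table, and ran from -1.18 to -0.64 leaving out 1 replicate. Median centring and the filter on both channels called Gimap5 in place of Gimap4. No GIMAP gene (0) was called without background correction, with the Feature Extraction ratios, the value table, no filter on dim probes or the fitted background surface (chosen after seeing the data). Over all genes, 134 were lower without background correction, 150 with the filter on both channels and 49 with the fitted surface, against 427; 69 were higher with median centring, 553 with centring on the tested probes and 151 with the fitted surface, against 314. Lower genes made up 57.6% of calls, 34.3% without background correction, 83.3% with median centring, 43.7% with centring on the tested probes, 25.3% with the filter on both channels and 24.5% with the fitted surface. The Feature Extraction ratios, the value table and no filter called 0 and 0 genes (2511, 2511 and 7409 probes at an unadjusted p under 0.05). The survival list had 1 lower gene without background correction and with the fitted surface, and 0 with those 3 settings. Of the cluster's neighbours, 1 was lower without background correction, with median centring and with the fitted surface, 0 with the filter on both channels and with those 3 settings, and 1 was higher with the filter on both channels and with centring on the tested probes. The causes were not tested. Each array sets 1 deficient sample against 1 wild-type sample, so the test of ratios is paired within arrays. Dim probes limit Gimap4, Gimap9, Gimap3 and Gimap7.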
